A study of Mus musculus with 54 samples.

Results

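The 6 members of the oligoadenylate synthetase (OAS) family described here in mouse microglia, the resident macrophages of the brain, are Oas1a, Oas1g, Oas2, Oas3, Oasl1 and Oasl2. They were taken by gene symbol from the 2 deposited gene count tables, as 6 of the 55536 genes that each table lists, and peaks were read at their start sites. Of the 54 samples in the series, 24 are RNA-seq libraries and 24 peak lists of open chromatin (ATAC-seq) and of histone marks (ChIP-seq) were used. In the recurrent injection model, male C57BL/6J wild-type mice, 7 to 9 weeks old on arrival, received 2 intraperitoneal injections 1 month apart: LPS then LPS (LL), PBS then LPS (PL), LPS then PBS (LP) or PBS then PBS (PP). LPS is a bacterial cell wall component that triggers innate immune responses, given at 1 mg/kg, and PBS is the saline vehicle. In the accelerated aging model, Ercc1Δ/ko mice (KO, FVB and C57BL/6J mixed background), which carry a germline deficiency of the DNA repair protein Ercc1 in every tissue, received LPS (KO-LPS) or PBS (KO-PBS) at 10 to 12 weeks of age. Their control littermates, a mixture of Ercc1wt/Δ, Ercc1wt/ko and Ercc1wt/wt mice, received LPS (WT-LPS) or PBS (WT-PBS). Microglia were sorted as CD11b+CD45+Ly6c- cells 3 h after the last injection, with 3 RNA libraries from separate mice in each group. Each ATAC-seq list came from pools of 2 mice and each ChIP-seq list from pools of 5 mice, and a list stands for its group without replicates.

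OAS enzymes are interferon-induced sensors of double-stranded RNA: on binding it they link ATP into short adenylate chains, a second messenger that limits viral growth. In the mouse, Oas1a and Oas1g are active small synthetases, Oas2 and Oas3 are larger enzymes with repeated synthetase units, and the OAS-like proteins Oasl1 and Oasl2 carry ubiquitin-like domains at their ends. Mouse Oasl2 makes adenylate chains, whereas Oasl1 lacks that activity and is known as an inhibitor of Irf7 translation. In microglia, as in other macrophages, these genes are part of the response to type I interferon.

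All 6 genes lie on chromosome 5 (GRCm38). Oasl2 (chr5:114896936-114912234) and Oasl1 (chr5:114923240-114937915) are neighbours on the plus strand. Oas2 (chr5:120730333-120749853), Oas3 (chr5:120753098-120777661), Oas1g (chr5:120876142-120887613) and Oas1a (chr5:120896256-120907521) lie on the minus strand in the Oas cluster. RefSeq promoters (GRCm38.p6) were matched for 5 of the 6 members, all but Oas2. The 4 printed are those that held a match to a motif marked below, which the Oasl2 promoter did not. Each run holds the 250 bases before the RefSeq start, written 5′ to 3′ on the gene's strand. Capitals mark matches to the core of the interferon-stimulated response element (ISRE), which is GAAA, any 2 bases and GAAA again, in Oas1a, Oas1g and Oas3, and matches to the kB motif in Oasl1.
Oas1a (chr5:120907526-120907775, minus strand): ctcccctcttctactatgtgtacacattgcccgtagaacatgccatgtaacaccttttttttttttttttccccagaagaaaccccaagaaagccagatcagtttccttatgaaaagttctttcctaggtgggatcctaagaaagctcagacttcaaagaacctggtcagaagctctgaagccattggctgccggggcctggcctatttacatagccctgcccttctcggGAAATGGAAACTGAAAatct
Oas1g (chr5:120887614-120887863, minus strand): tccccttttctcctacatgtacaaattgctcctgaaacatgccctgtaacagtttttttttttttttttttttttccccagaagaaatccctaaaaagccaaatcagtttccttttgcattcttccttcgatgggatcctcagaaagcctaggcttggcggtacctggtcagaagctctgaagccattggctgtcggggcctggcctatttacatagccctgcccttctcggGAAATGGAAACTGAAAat
Oas3 (chr5:120777660-120777909, minus strand): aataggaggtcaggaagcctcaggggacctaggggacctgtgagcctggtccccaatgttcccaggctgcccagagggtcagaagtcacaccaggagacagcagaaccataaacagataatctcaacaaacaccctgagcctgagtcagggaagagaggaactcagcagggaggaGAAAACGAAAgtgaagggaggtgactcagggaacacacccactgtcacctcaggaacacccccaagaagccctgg
Oasl1 (chr5:114922990-114923239, plus strand): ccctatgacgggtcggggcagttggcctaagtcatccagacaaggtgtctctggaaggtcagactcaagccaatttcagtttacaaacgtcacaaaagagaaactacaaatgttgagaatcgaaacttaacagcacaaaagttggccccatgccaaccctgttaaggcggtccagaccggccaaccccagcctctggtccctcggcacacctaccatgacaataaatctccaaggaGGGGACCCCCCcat

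In the 300-base RefSeq promoters (250 before to 50 after the start), searched on both strands, 3 of the 5 members held at least 1 ISRE core, against 3.44% of 32851 promoters. Oas1a and Oas1g each held 2 cores that overlap each other and end within a few bases of the start, and 0.225% of all promoters held 2 or more. The Oas3 core lay 66 to 75 bases before the start. The interferon gamma-activated site, TTC and GAA with any 3 bases between, was matched in Oas1a, against 8.3% of all promoters, and the kB motif in Oasl1 and Oas3, against 8.46%. The promoters of Oas1a and Oas1g were identical at 85.3% of 306 aligned positions, and the other member pairs at 42.9 to 48.9%. Oasl1 and Oasl2 had no ISRE core in these promoters, but their ATAC peaks in some groups held them further out, and these are shown as 20-base stretches of GRCm38 with the core in capitals, which reads as TTTC, any 2 bases and TTTC on the plus strand.
Oasl2 (chr5:114897464-114897483, plus strand): tgcagTTTCACTTTCaattc
Oasl2 (chr5:114897493-114897512, plus strand): cttggTTTCTGTTTCcagtt
Oasl1 (chr5:114922962-114922981, plus strand): ggctcTTTCTCTTTCcaaac

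The Oasl2 cores lay 533 and 562 bases after the gene start. Both were inside the ATAC peaks of PL, KO-LPS and KO-PBS, and the nearer of them was inside that of LL. The Oasl1 core, 273 bases before the start, was inside the KO-LPS ATAC peak at that gene and inside no other list's ATAC peak. The KO-PBS peak there began 258 bases before the start, just past the core, so that difference is a matter of its edge. Among KO-LPS ATAC peaks within 10% of the length of the Oasl2 peak, 7.97% held at least 1 ISRE core and 0.72% held 2 or more. Among those within 10% of the length of this Oasl1 peak, 8.39% held at least 1.

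The libraries held 4530395 to 15307836 expected counts in the recurrent injection model and 18243891 to 34659337 in the Ercc1 model, and levels are given as CPM, a gene's count relative to the total of its library after TMM scaling. Values within a group are listed in the order of the replicate or mouse numbers. Ercc1 itself had 4.67 to 6.82 CPM in KO-LPS against 7.93 to 9.82 CPM in WT-LPS (log2 fold change -0.67, edgeR adjusted p = 0.0298) and 5.14 to 8.18 CPM in KO-PBS against 8.79 to 11 CPM in WT-PBS (-0.57, edgeR adjusted p = 0.0987), and the groups did not overlap in either pair. The 8 microglia markers, none at 0 in any group, summed to 21741 to 56208 CPM over all libraries, with 21741 to 29838 CPM in PL against 37794 to 42279 CPM in PP. They summed to 24554 to 32977 CPM in KO-LPS against 39006 to 46489 CPM in WT-LPS, and to 35322 to 38539 CPM in KO-PBS against 27806 to 56208 CPM in WT-PBS. The third WT-PBS library stood apart, with 3481 CPM of the microglia marker Cx3cr1 beside 11135 and 12234 CPM in the others. The sums of 6 monocyte markers were 55.3 to 94.8 CPM in PL and 42.4 to 45.8 CPM in LL against 22.1 to 29.0 CPM in PP, and those of 6 neutrophil markers 0.883 to 189 CPM in PL and 0.487 to 4.97 CPM in LL against 0 to 35.4 CPM in PP, with Ly6g at 0 in LL and PP. In the Ercc1 model the neutrophil sums were 0.032 to 13.3 CPM in KO-LPS against 0 to 0.109 CPM in WT-LPS, with Ly6g at 0 in both. The monocyte sums in that model were 29.4 to 37.9 CPM in KO-LPS against 24.5 to 27.5 CPM in WT-LPS. They were 19.6 to 24.2 CPM in KO-PBS against 5.28 to 28.4 CPM in WT-PBS. The sums of 7 border-associated macrophage markers were 52.2 to 65.9 CPM in KO-LPS against 20.2 to 24.8 CPM in WT-LPS. They were 19.5 to 34.6 CPM in KO-PBS against 8.04 to 15.8 CPM in WT-PBS, where Pf4 was at 0. In the recurrent injection model they were 38.6 to 44.0 CPM in LL against 15.1 to 29.8 CPM in PL and 22.7 to 24.8 CPM in PP. In LP they spread widely, from 21.4 to 57.2 CPM. The monocyte sums in LP were 23.6 to 27.2 CPM and the neutrophil sums 4.33 to 17.1 CPM. The sums of 6 lymphocyte markers were 4.79 to 5.08 CPM in KO-LPS against 0.218 to 0.375 CPM in WT-LPS, with Nkg7 at 0 in both. These sums move with some of the results below and their part in them was not tested. In bulk libraries, a change in how many cells of a type were present and a change in RNA per cell cannot be told apart.

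The members differed in level once set per length. Per kilobase of transcript, Oas1a had the highest mean of the 6 in PP (3.69 ± 0.416 CPM per kb, SD, n = 3) and PL (10.4 ± 2.48 CPM per kb), and Oas3 the lowest (0.0295 ± 0.0147 in PP and 0.363 ± 0.154 in PL). In KO-LPS, Oasl1 (41.6 ± 26.9 CPM per kb), Oas1a (37.5 ± 6.44), Oas2 (29.2 ± 7.39) and Oasl2 (26.4 ± 9.6) lay within their spreads of each other, with lower means for Oas1g (14.6 ± 4.6) and Oas3 (3.66 ± 0.428). Oas3 was the lowest of the 6 per length in each of the 8 groups.

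**Figure D1:**
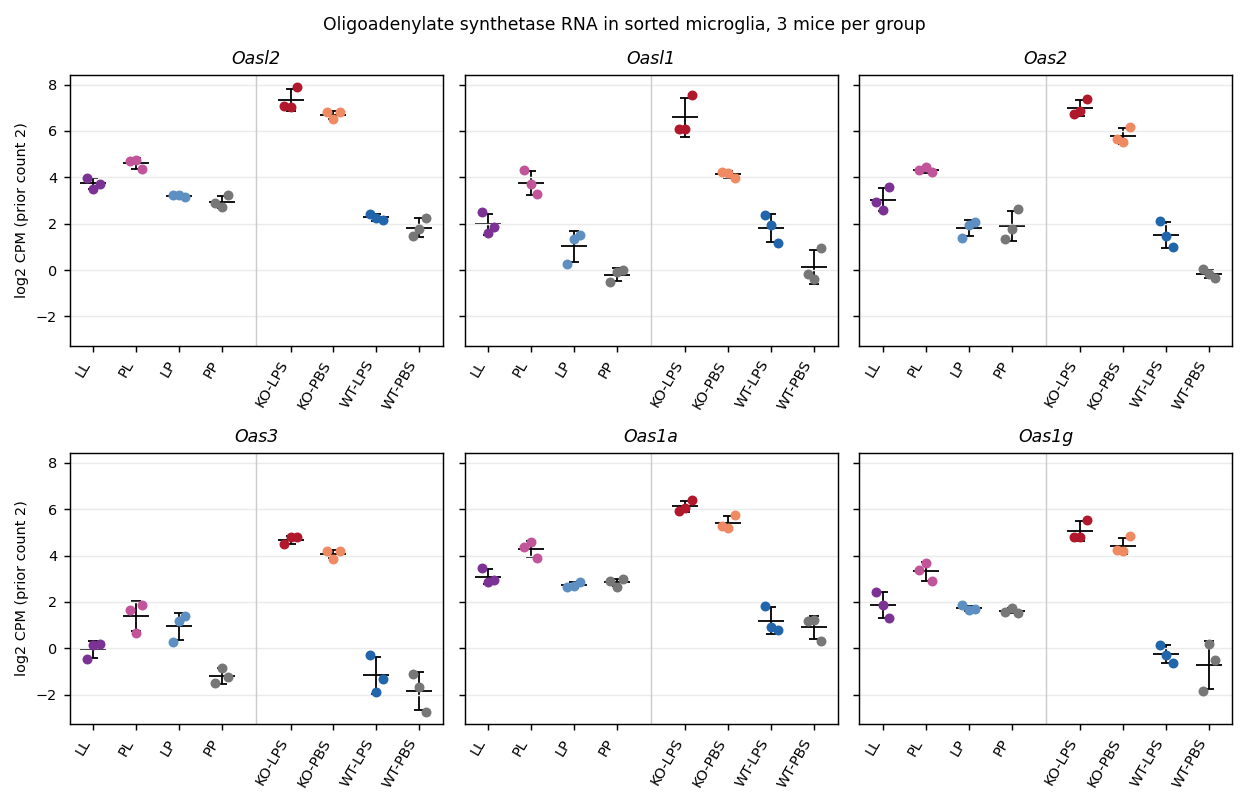
Level of each OAS gene in every RNA library, as log2 of TMM-scaled CPM with a prior count of 2, with a panel for each gene and a column for each group. Points are libraries (3 per group), the wide lines group means and the error bars SD; every KO library lies above every WT library of its own treatment, and every PL library above every PP library.

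The first comparison asks what a first LPS injection did to these genes in mice without earlier exposure. Every member was higher 3 h after LPS in PL than in PP. Oasl1, the inhibitor of Irf7 translation, had 19.6, 12.7 and 9.45 CPM in PL, against 0.462, 0.705 and 0.762 CPM in PP. Oas3 had 2.91, 1.35 and 3.44 CPM in PL, against 0.115, 0.321 and 0.191 CPM in PP. The lowest PL library lay above the highest PP library in both genes, but the Oas3 values in PP rest on 1 to 5 counts a library. Oas2 had 19.6, 21.8 and 18.3 CPM in PL, against 2.31, 3.21 and 5.91 CPM in PP. Oasl2 had 26.0, 27 and 20.04 CPM in PL, against 7.15, 6.41 and 9.15 CPM in PP. The groups did not overlap in these enzymes either, although PP replicate 3 was the highest of its group in both. Oas1a had 20.2, 23.9 and 14.6 CPM in PL, against 7.15, 6.09 and 7.62 CPM in PP. Oas1g had 10.2, 12.7 and 7.16 CPM in PL, against 2.77, 3.14 and 2.67 CPM in PP. These small synthetases were highest in PL replicate 2.

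The rise passed the test in 6 of 6 members, against 26% of 16096 tested genes that were called higher in this comparison, and their median log2 fold change was 2.13 against -0.04 over all genes. With edgeR's quasi-likelihood test, the log2 fold change of Oasl1 was 4.43 (SE 0.40, adjusted p = 4.57e-07), that of Oas3 3.39 (SE 0.53, adjusted p = 8.66e-05) and that of Oas2 2.48 (SE 0.28, adjusted p = 5.03e-06). Oas1g (1.79, SE 0.26), Oasl2 (1.73, SE 0.17) and Oas1a (1.52, SE 0.20) followed, with edgeR adjusted p between 1.19e-06 and 4.58e-05. All libraries of PL lay above all of PP in 29.3% of tested genes. The 6 calls held when any library was left out. Reads cannot be assigned fully to Oas1a or Oas1g, since 57.6% of the 50-base stretches of Oas1a transcripts and 45.7% of those of Oas1g occur in another gene of the family, and their values are those of a pair.

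The next comparisons ask how the same injection acted in mice that had received LPS 1 month before. Levels after the second LPS were lower than after a first LPS for every member. Oasl1 had 5.36, 2.79 and 3.39 CPM in LL, below each PL library. Oas3 had 0.487, 0.880 and 0.903 CPM in LL, on 4 to 6.11 counts a library. Oas2 had 7.30, 5.87 and 11.7 CPM in LL. In each of these genes the LL and PL libraries did not overlap. Oasl2 had 15.6, 11.1 and 12.9 CPM in LL. Oas1a had 10.8, 7.04 and 7.45 CPM in LL, and Oas1g 5.11, 3.37 and 2.26 CPM. LL lay below PL here too, so the groups were apart in 6 of 6 members, against 15.7% of tested genes with every LL library lower.

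All 6 members were called lower in LL than in PL, against 4.77% of tested genes called lower, with a median log2 fold change of -1.36 against -0.01 over all genes. The log2 fold change was -1.84 for Oasl1 (edgeR adjusted p = 0.00292), -1.80 for Oas3 (0.0303), -1.42 for Oas1g (0.00423), -1.30 for Oas2 (0.00812), -1.19 for Oas1a (0.00245) and -0.88 for Oasl2 (0.0051). Oas3 missed the threshold in 5 of the 6 fits that left out 1 library and Oas2 in 1, so 4 to 6 members were called in those fits.

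Against LP, the group with the same first injection, fewer members were called after the second LPS. Oas2 had its 7.30, 5.87 and 11.7 CPM in LL, against 2.41, 3.57 and 4.00 CPM in LP, and Oasl2 its 15.6, 11.1 and 12.9 CPM against 9.14, 9.22 and 8.60 CPM. Each LL library was above each LP library in both, as in 23.1% of tested genes. Both were called higher, Oas2 with a log2 fold change of 1.26 (SE 0.31, edgeR adjusted p = 0.00666) and Oasl2 with 0.56 (SE 0.18, adjusted p = 0.0286), which makes 2 of 6 members against 15.4% of tested genes. Oasl1 had 0.98 (adjusted p = 0.0655), Oas1a 0.44 (0.151) and Oas1g 0.29 (0.493), none past the edgeR threshold. Every LL library was nevertheless above every LP library in Oasl1 and, by a narrow margin, in Oas1a, but not in Oas1g. Oas3 went the other way, with 0.487, 0.880 and 0.903 CPM in LL against 0.962, 2.01 and 2.40 CPM in LP, groups that do not overlap, as in 25.6% of tested genes, and a log2 fold change of -1.29 (SE 0.49, edgeR adjusted p = 0.0594). The number called was 1 without LP replicate 2, LP replicate 3, LL replicate 1 or LL replicate 3, as Oasl2 lost its call there and without LP replicate 1 as well, in 5 of 6 such fits. Oasl1 was called too without LL replicate 2, which made 3, and Oas3 was called lower without LP replicate 1, where 16% of tested genes were called lower with all libraries.

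**Figure D2:**
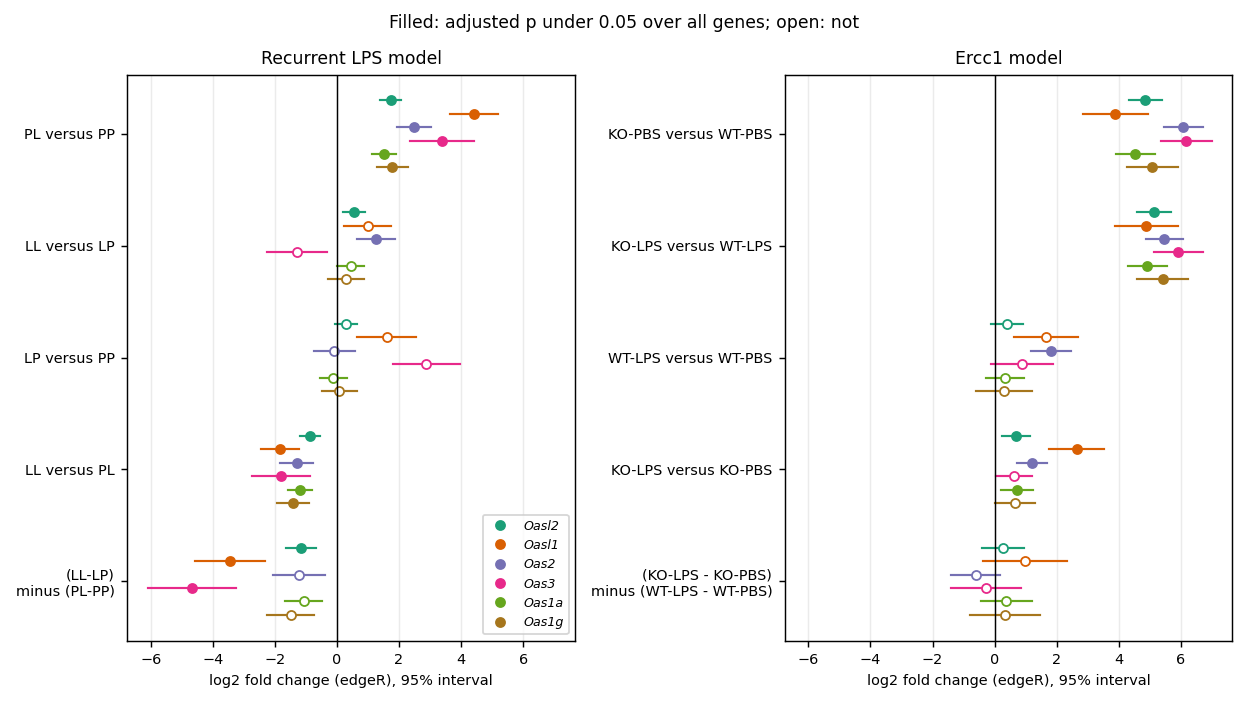
Log2 fold change of each OAS gene in each comparison, with filled symbols where the edgeR adjusted p was below 0.05. Bars are normal 95% intervals from a standard error derived from the F statistic, and the calls do not rest on them. The PL versus PP values run between 1.52 and 4.43 and the LL versus LP values between -1.29 and 1.26; both Ercc1 genotype comparisons lie between 3.90 and 6.19.

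The test of the difference itself, the response to the second injection after LPS minus that after PBS, was called negative in 3 of 6 members, against 1.55% of tested genes. It was -4.68 on the log2 scale for Oas3 (SE 0.73, edgeR adjusted p = 0.00361), -3.44 for Oasl1 (SE 0.58, adjusted p = 0.00623) and -1.17 for Oasl2 (SE 0.25, adjusted p = 0.0248). Oas1g (-1.50, adjusted p = 0.0688), Oas1a (-1.08, 0.0832) and Oas2 (-1.22, 0.174) did not pass the edgeR threshold. Oasl2 lost its call in 8 of the 12 fits that left out 1 library, with edgeR adjusted p up to 0.0891. Without LP replicate 2 only Oas3 was called, and without PL replicate 3 the count was 5. The same difference is LL versus PL minus LP versus PP, so a higher level in LP makes it more negative. Those parts were -1.80 and 2.88 for Oas3, -1.84 and 1.6 for Oasl1, and -0.88 and 0.29 for Oasl2. No gene was called in LP versus PP, and Oas3 in PP rests on 1 to 5 counts a library.

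Whether the first LPS left a trace after 1 month is asked by LP against PP. Oas3 had 0.962, 2.01 and 2.40 CPM in LP, against 0.115, 0.321 and 0.191 CPM in PP. Oasl1 had 0.962, 2.26 and 2.60 CPM in LP, against 0.462, 0.705 and 0.762 CPM in PP. Each LP library was above each PP library in both genes, against 4.78% of tested genes. No gene of 16096 passed edgeR's test in this comparison (0%), and 795 genes, 4.94%, had an unadjusted p under 0.05. The log2 fold change of Oas3, 2.88 (SE 0.55, adjusted p = 0.429), ranked 7 of 16096 with the largest increase first. Oasl1 had 1.6 (SE 0.48, adjusted p = 0.879). Without the filter on low counts, Oas3 was called. Oas2, Oasl2, Oas1a and Oas1g had log2 fold changes of -0.12 to 0.29 with overlapping groups.

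In Ercc1Δ/ko microglia, all 6 members were far above the littermate controls without any LPS. Oas2 had 50.5, 46.4 and 71.6 CPM in KO-PBS, against 0.951, 0.810 and 0.724 CPM in WT-PBS. Oas3 had 18, 14.4 and 18.1 CPM in KO-PBS, against 0.387, 0.247 and 0.0804 CPM in WT-PBS. Oasl2 had 111, 90.4 and 112 CPM in KO-PBS, against 2.68, 3.35 and 4.69 CPM in WT-PBS. The lowest KO-PBS library was many times the highest WT-PBS library in each of these enzymes. Oas1a had 39.2, 36.2 and 53.5 CPM in KO-PBS, against 2.18, 2.26 and 1.18 CPM in WT-PBS, and Oas1g 18.8, 18.2 and 28.4 CPM against 0.211, 1.06 and 0.643 CPM. Oasl1 had 18.8, 17.9 and 15.4 CPM in KO-PBS, against 0.810, 0.705 and 1.88 CPM in WT-PBS. The third KO-PBS mouse was the highest of its group for Oas2, Oas1a and Oas1g, but not for Oasl1.

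All 6 were called higher in KO-PBS, against 8.16% of 17460 tested genes, and the median log2 fold change was 4.97 against -0.02 over all genes. The libraries of KO-PBS and WT-PBS did not overlap in any member, as in 16.4% of tested genes with every KO-PBS library higher. The log2 fold change was 6.19 for Oas3 (SE 0.42, edgeR adjusted p = 1.13e-06), 6.09 for Oas2 (SE 0.33, adjusted p = 2.74e-07) and 5.09 for Oas1g (SE 0.42, adjusted p = 9.27e-06). Oasl2 had 4.86 (SE 0.27), Oas1a 4.53 (SE 0.32) and Oasl1 3.90 (SE 0.53), with edgeR adjusted p between 3.47e-07 and 0.000979. Every call held in every fit with a library left out, the third WT-PBS library included. In this model's 75-base reads, 47.6% of the stretches of Oas1a transcripts and 36.9% of those of Oas1g are shared with the other gene.

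After LPS the genotypes stayed apart. Oas2 had 108, 115 and 168 CPM in KO-LPS, against 4.20, 2.69 and 1.89 CPM in WT-LPS. Oasl1 had 67.8, 68.5 and 189.5 CPM in KO-LPS, against 5.1, 3.74 and 2.18 CPM in WT-LPS. Oasl2 had 133, 133 and 239 CPM in KO-LPS, against 5.28, 4.66 and 4.33 CPM in WT-LPS. The high library in each KO-LPS group was mouse 600. Oas3 had 22.4, 27.6 and 27.6 CPM in KO-LPS, against 0.750, 0.204 and 0.327 CPM in WT-LPS. Oas1a had 61, 66.8 and 84.3 CPM in KO-LPS, against 3.52, 1.84 and 1.67 CPM in WT-LPS, and Oas1g 27.8, 28.0 and 46.6 CPM against 1.05, 0.749 and 0.582 CPM. Every KO-LPS library was above every WT-LPS library in 6 of 6 members, against 22% of tested genes. The 6 members were called higher in KO-LPS, against 13.4% of tested genes, with log2 fold changes of 4.88 to 5.92 and edgeR adjusted p between 2.1e-07 and 7.3e-05, a median of 5.28 against -0.04 over all genes.

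LPS within a genotype went with smaller fold changes, with member medians of 0.70 on the log2 scale in KO and 0.64 in WT, and the difference in response between genotypes was called for none. In WT-LPS against WT-PBS, Oas2 was called higher (log2 fold change 1.82, SE 0.32, edgeR adjusted p = 0.00202), 1 of 6 members against 10.6% of tested genes. Oasl1 had 1.66 (SE 0.53, adjusted p = 0.0513) with every WT-LPS library above every WT-PBS library, as in 19.8% of tested genes, and the remaining 4 had 0.31 to 0.88 in edgeR's fit. Oasl1 was also called, making 2, without the third WT-PBS or the third WT-LPS library.

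In KO-LPS against KO-PBS, 4 of 6 members were called higher, against 17.7% of tested genes, and the median log2 fold change was 0.70 against 0.00 over all genes. Oasl1 had 2.64 (SE 0.46, edgeR adjusted p = 0.00116) and Oas2 1.21 (SE 0.24, adjusted p = 0.00205). Oas1a (0.72, adjusted p = 0.0486) and Oasl2 (0.68, adjusted p = 0.032) passed more narrowly. Oas1a lost its call in 5 of the 6 fits that left out 1 library and Oasl2 in 4, so 2 to 3 members were called in those fits. Only Oasl1 and Oas2 passed without KO-LPS mouse 600 or without the first or the second KO-PBS library. Oas1g (0.65, adjusted p = 0.145) and Oas3 (0.62, adjusted p = 0.122) did not pass edgeR's threshold, but both passed with limma, with and without surrogate variables, which called 6 of 6. Mouse 600 was also the KO-LPS library with neutrophil markers, with 113 counts of S100a8 and 128 of S100a9 beside 1 and 4 of S100a8 and 0 of S100a9 in the others, and their part in these narrow calls was not tested. The genotype by LPS term had 0 of 6 members past the edgeR test, against 4.97% of tested genes in either direction (20.6% at an unadjusted p under 0.05), and ran between -0.61 for Oas2 and 0.99 for Oasl1. The 4 groups share their libraries among these comparisons.

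Open chromatin was read next, as ATAC peaks within 1000 bp of each member's start. Among recurrent injection lists, Oas2, Oasl1 and Oasl2 had such a peak in LL (3 of 6, against 29.4% of genes) and in PL (3 of 6, against 29.8%), Oasl1 alone in LP (against 28.5%), and no member in PP (against 29%). At Oas2 the peak spanned the start with a deposited signal of 122 in LL and 43.5 in PL. At Oasl2 it lay after the start, with signals of 91.1 and 63.2 for a pair of peaks in LL and 66.2 for 1 peak in PL. A peak in PL but not in PP was listed at 3 members, against 1.89% of genes, and a peak in LL but not in LP at 2, against 1.6%. Oas1a, Oas1g and Oas3 had no ATAC peak in any recurrent injection list.

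A site upstream of Oasl1 was open in all 8 lists. Its signal was 478 in LL, 624 in PL, 406 in LP and 252 in PP, and 660 in KO-LPS, 263 in WT-LPS, 538 in KO-PBS and 32.2 in WT-PBS. Signals were used as given, without scaling between lists. The main peak at the paralogs Oas1b and Oas1c, also in all 8 lists, differed as well. Its signal was 539 in LL, 543 in PL, 391 in LP and 451 in PP. In the Ercc1 model it was 532 in KO-LPS, 229 in WT-LPS, 230 in KO-PBS and 143 in WT-PBS. In PP and WT-PBS it ended at -1017 and -1063 bp relative to the start, just outside the window, so the missing Oasl1 peak in those lists is a matter of its edge. A further peak at or just before the Oasl1 start was listed in PL (signal 30.6), KO-LPS (404) and KO-PBS (87.8) and in no other list.

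In the Ercc1 model, 5 of 6 members had an ATAC peak in KO-LPS (all but Oas3, against 27.8% of genes), 1 in WT-LPS (Oasl1, against 28.9%), 4 in KO-PBS (Oas1a, Oas2, Oasl1 and Oasl2, against 26.6%) and none in WT-PBS (against 23.7%). A peak in KO-LPS but not in WT-LPS was listed at 4 members, against 0.795% of genes, and in KO-PBS but not in WT-PBS at 4, against 3.27%. The Oas2 peak had a signal of 494 in KO-LPS and 232 in KO-PBS, and the Oasl2 peak 399 and 86.1. The Oas1a peak, which holds both ISRE cores printed above, had 74.4 in KO-LPS and 36.4 in KO-PBS, and Oas1g had a peak of 41.1 in KO-LPS that lies after its start and holds no core. The lists differ in length, with 59019 peaks in KO-LPS and 65323 in WT-LPS, and 52325 in KO-PBS and 36412 in WT-PBS. When each list was cut to its 36412 highest-scoring peaks, 4 members kept a peak in KO-LPS, 2 in KO-PBS (Oas2 and Oasl1), and 1 (Oasl1) in each of LL, PL and LP, with none in PP, WT-LPS and WT-PBS.

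**Figure D3:**
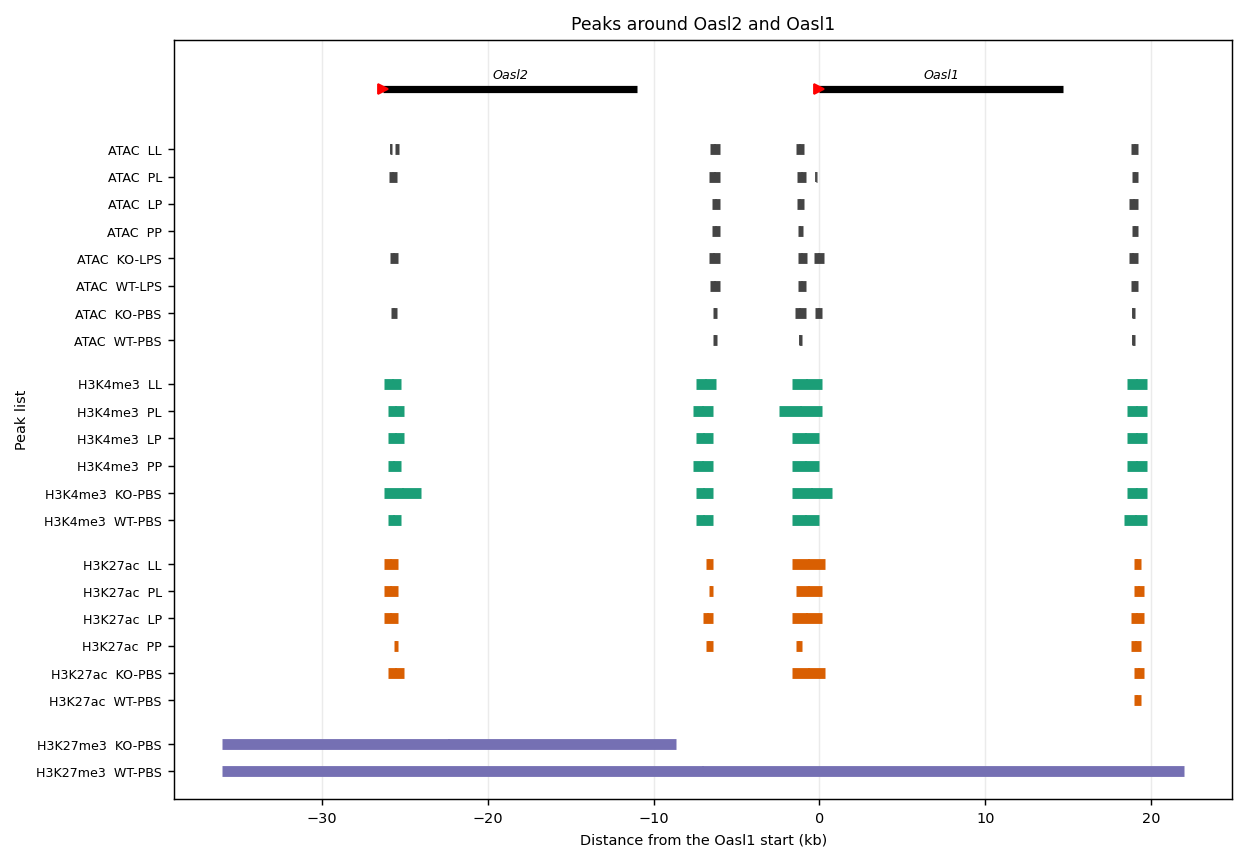
Peaks around Oasl2 and Oasl1, drawn as bars against distance in kb, with one row per deposited list and red arrowheads at the gene starts. H3K27me3 bars are clipped at the edges of the window; the Oasl1 upstream ATAC site is present in all 8 ATAC rows, and the ATAC peaks at Oasl2 in LL, PL, KO-LPS and KO-PBS.

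**Figure D4:**
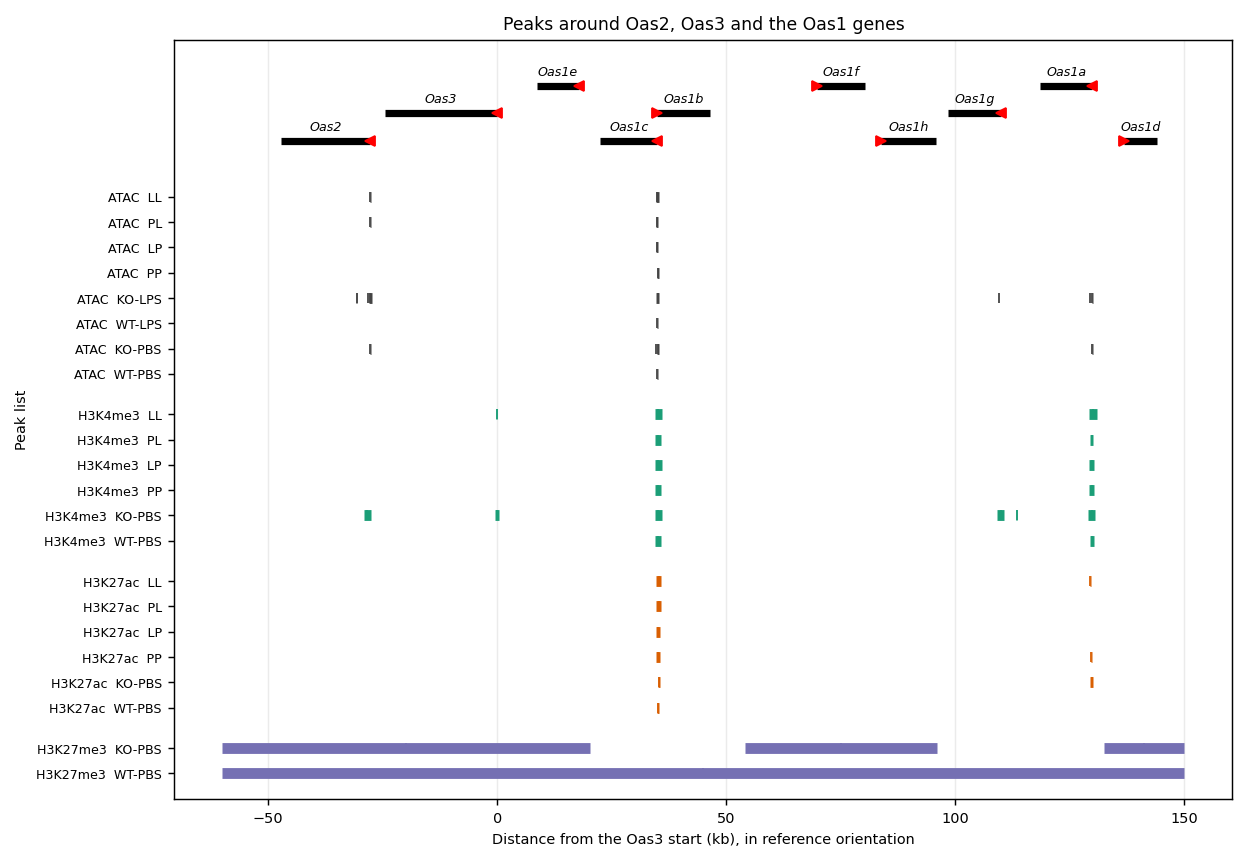
Peaks around Oas2, Oas3, Oas1g and Oas1a, drawn as bars against distance in kb, with one row per deposited list and red arrowheads at the gene starts. H3K27me3 bars are clipped at the edges of the window; H3K4me3 bars stand at all 4 starts in KO-PBS and at that of Oas1a in WT-PBS.

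H3K4me3 marks active starts and H3K27ac active promoters and enhancers. The authors adjusted the ChIP-seq peak settings sample by sample, so presence or absence in the lists below can rest on unlike thresholds. H3K4me3 peaks stood at the starts of Oas1a, Oasl1 and Oasl2 in PL, LP and PP (3 of 6, against 33.9%, 34.1% and 34% of genes), and in LL Oas3 was added (4 of 6, against 34.3%). All 6 members had one in KO-PBS (against 31.8%) and the same 3 in WT-PBS (against 32.4%). Oas1g, Oas2 and Oas3 therefore had an H3K4me3 peak in KO-PBS and none in WT-PBS, a change listed for 0.463% of genes. The deposited H3K4me3 score was 252 in KO-PBS against 150 in WT-PBS at Oas1a, and 244 against 136 at Oasl2, but 106 against 109 at Oasl1. At Oas1a it was 116 in LL, 126 in PL, 107 in LP and 89 in PP. At Oasl2 it was 118 in PL, 134 in LP and 111 in PP, and the LL score was above these.

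H3K27ac peaks were listed at Oas1a, Oasl1 and Oasl2 in LL (3 of 6, against 29.3% of genes), at Oasl1 and Oasl2 in PL (2 of 6, against 29%) and LP (2 of 6, against 29.6%), and at Oas1a and Oasl2 in PP (2 of 6, against 29.2%). In PP the nearest H3K27ac peak to Oasl1 lay just upstream of the window. The same 3 genes as in LL had one in KO-PBS (against 25.2%) and none did in WT-PBS (against 25.5%), a pattern of 0.833% of genes. The H3K27ac score at Oasl2 was 73 in LL, 73 in PL, 55 in LP and 40 in PP. H3K4me1 lists gave 4 members in that labelled KO-PBS (against 38.5% of genes) and 6 in that labelled WT-PBS (against 36.1%), but the deposited names of these lists and their sample labels are at odds, and no direction is drawn from them.

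H3K27me3, the mark of Polycomb repression, covered the members in domains many times their length. In WT-PBS 1 domain of 486.8 kb, rank 289 of 8847 by length, held Oas2, Oas3, Oas1g and Oas1a, and another of 166.2 kb held Oasl1 and Oasl2, so that all 6 starts were covered (against 38% of genes). In KO-PBS the marked stretch of the Oas cluster was broken: a domain of 169 kb held Oas2 and Oas3, and domains of 41.8 and 206 kb held no member. At the separate Oasl locus a domain of 81.4 kb held Oasl2 but not Oasl1, so 3 starts were covered in KO-PBS (against 35.8% of genes). Oas1a, Oas1g and Oasl1 lay in no listed domain over their whole length in KO-PBS and were covered in WT-PBS. Counted within 1000 bp of the start alone, such a difference was listed for 3.81% of genes. Another gap in KO-PBS spanned the paralogs Oas1b and Oas1c, and the domain of 41.8 kb lay between the gaps. Oas2, Oas3 and Oasl2 were covered in KO-PBS although their RNA was 4.86 to 6.19 higher on the log2 scale than in WT-PBS. The lists covered 855.9 Mb in KO-PBS and 916.1 Mb in WT-PBS.

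The other Oas1 genes did not move with Oas1a and Oas1g throughout. Oas1b, whose full-length form restricts flavivirus growth in mice, was higher in KO-PBS than in WT-PBS (log2 fold change 2.40, edgeR adjusted p = 0.00348) and in KO-LPS than in WT-LPS (2.96, adjusted p = 0.000451), and had 0.44 in PL against PP (adjusted p = 0.388). Oas1c was higher in KO-PBS than in WT-PBS (2.15, edgeR adjusted p = 0.00247) but lower in PL than in PP (-0.72, adjusted p = 0.0278). Oas1d, Oas1e, Oas1f and Oas1h had too few counts to be tested.

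Of 24 other genes of interferon signalling, RNA sensing and adenylate turnover, 22 were tested in the recurrent injection model and 23 in the Ercc1 model. Of these, 17 were called higher and 3 lower in PL against PP, beside 26% and 26.6% of all tested genes. In KO-PBS against WT-PBS, 13 were higher and 0 lower, beside 8.16% and 3.4% of tested genes. In LL against PL, 2 were higher and 14 lower, beside 3.65% and 4.77%, and in LP against PP none was called. Stat2, a part of the interferon-activated transcription factor, had a log2 fold change of 2.80 in PL against PP (edgeR adjusted p = 2.76e-10), Zbp1, a sensor of Z-form nucleic acid, 2.52, and Irf7, a factor that drives interferon genes, 2.22. In KO-PBS against WT-PBS, Zbp1 had 4.39, Irf7 3.99 and Usp18, a feedback inhibitor of interferon signalling, 3.8 (edgeR adjusted p = 1.08e-05). Ifnb1, which encodes interferon beta, had 9, 5 and 14 counts in KO-PBS against 0, 0 and 0 in WT-PBS, and 29, 20 and 97 counts in KO-LPS against 0, 0 and 2 in WT-LPS. The 97 counts were in mouse 600, the library with the highest Oasl1 and Oasl2. Ifnb1 had 4, 2 and 4 counts in PL and 1, 0 and 0 in LL and in PP, too few to be tested.

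**Figure D5:**
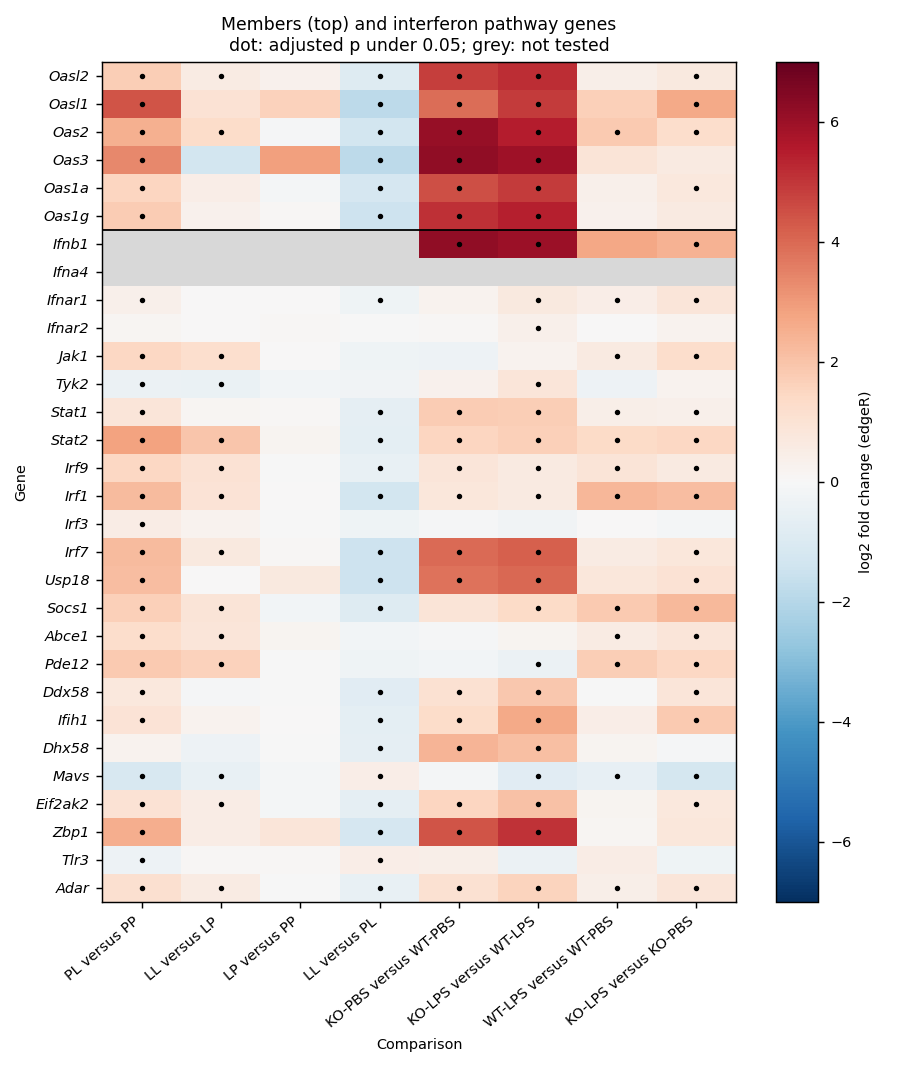
Log2 fold changes of the OAS genes and of the other pathway genes in each comparison, as a heat map with a colour scale from -7 to 7; a dot marks an edgeR adjusted p below 0.05, grey a gene not tested, and the Ifnb1 colours against WT rest on 0 to 2 counts in WT. The OAS rows are higher throughout in both KO against WT columns, with values of 3.90 to 6.19.

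Genes with the pattern nearest to the members' mean were found over all 24 libraries among the 14718 genes tested in both models, by the root mean square difference of log2 CPM centred on each model's mean. Ifitm3, an interferon-induced membrane protein, was nearest at 0.360, followed by Mndal at 0.397, Iigp1, Irf7, Gm43302, Ass1, Zbp1, H2-Q7, Gbp6 and Usp18, the last at 0.536, and the median of all genes was 2.00. Among the members themselves Oasl2 and Oas1a were the most alike, at 0.356, and Oas3 and Oasl1 the least, at 1.17. The libraries of a group share their treatment and are not independent points, so these distances are a description.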

How the data were processed

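Microglia RNA was sequenced as 50-base (recurrent injections) or 75-base (Ercc1) single-end reads. Per the labels and the study's methods, the authors aligned reads with STAR 2.7.3a to GRCm38 and counted them with featureCounts 2.0.0. The deposited expected counts, fractional where a read was shared among genes, were rounded to whole numbers here. Peak lists were made by the authors with Genrich 0.5 (ATAC-seq) and SPAN (ChIP-seq, 200-bp bins). Per the study's methods, the SPAN settings were adjusted by hand for each sample, so the ChIP-seq lists share no common threshold. The deposited score, signal and −log10 p columns were used as given. ATAC-seq and ChIP-seq reads were aligned by the authors with Bowtie2 2.3.5.1, and Picard 1.130 served for quality control of the RNA-seq data.

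Counts were scaled by TMM, filtered with filterByExpr and tested with edgeR 4.0.16 (quasi-likelihood) in R 4.3.3, 1 model for the 4 groups of each table. A gene was called at a Benjamini-Hochberg adjusted p under 0.05 over all 16096 or 17460 tested genes. Distances between genes used log2 CPM with a prior count of 2. The script was checked on simulated counts. Gene symbols matched for 55450 of 55536 IDs. Peaks were counted at a gene when they overlapped the 1000 bp to either side of its annotated start by at least 1 bp, and shares are of 55450 genes. The depth, 4530395 to 34659337 expected counts a library, limits low genes such as Oas3 in PP. The p-values set group differences against the spread between mice.

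The 6 members, the pathway genes and the marker lists were chosen with earlier results of these data known. 1 gene of the pathway list is not reported here. The pathway genes named in the text are up to 4 per comparison with the largest change among those called. Alternatives were DESeq2 1.42.0, limma 3.58.1 (voom with quality weights) with and without sva 3.50.0 surrogate variables, other filters, the Oas1 genes summed, a replicate block, each library left out, and other peak windows and list lengths. Figures were drawn with matplotlib 3.10.9.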

Additional observations from a re-analysis of the deposited data

Results flagged for a closer look

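The response to the second injection differed between mice with LPS and mice with PBS as the first one by the edgeR interaction test for 3 OAS genes, Oas3 (-4.68 on the log2 scale), Oasl1 (-3.44) and Oasl2 (-1.17), whose call was lost in 8 of 12 fits that left out 1 library. The same test was past the threshold for the pathway genes Usp18 (-2.15), Zbp1 (-2.01), Irf7 (-1.55) and Irf1 (-1.28). For Oas3 and Oasl1 the interaction also holds log2 fold changes of 2.88 and 1.6 in LP against PP, where no gene was called. The same part was 0.68 for Usp18 and 0.82 for Zbp1, against 0.081 for Irf7 and 0.0085 for Irf1. In the Ercc1 model, the response to LPS differed between KO and WT for the RNA sensors Ifih1 (1.36) and Ddx58 (0.87), which were more responsive in KO, and for their adaptor Mavs (-0.67), while no OAS gene passed that test.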

How the results depend on the processing

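Over all alternatives, 853 of 924 values for single members kept their direction and side of the threshold, 32 lost the threshold, 24 gained it and 15 changed sign. All 6 members were called in every alternative for PL against PP and for KO against WT under either treatment. With limma and surrogate variables, 4 members were called in LL versus LP (3 higher, Oas3 lower) and 6 in the difference between the second-injection responses. In KO-LPS versus KO-PBS, limma with or without them called 6, and DESeq2, a fit of those groups alone and the Oas1 genes summed 5. Without the filter on low counts, 1 was called in LP versus PP and 2 in KO-LPS versus KO-PBS. In WT-LPS versus WT-PBS, DESeq2 and a filter of at least 1 CPM in 3 libraries gave 2, and limma without surrogate variables 0. With a library left out, the counts were 1 to 3 in LL versus LP, 4 to 6 in LL versus PL, 1 to 5 in the recurrent difference, 1 to 2 in WT-LPS versus WT-PBS, 2 to 3 in KO-LPS versus KO-PBS and 0 in LP versus PP and in the genotype by LPS term. The ATAC promoter peaks fell to 9 of 48 with equal numbers of peaks per list, against 17.

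The 15 changes of sign were in values that no fit called. With limma without surrogate variables they were 0.11 for Oas2 in LP versus PP, -0.022 for Oas1a in WT-LPS versus WT-PBS, and -0.066, 0.39 and -0.12 for Oas1g, Oas3 and Oasl2 in the genotype by LPS term. With the Oas1 genes summed, LP versus PP was -0.17. With a library left out, the ranges were -0.034 to 0.49 (Oas1g, LL versus LP), -0.33 to 0.23 (Oas2, LP versus PP), -0.076 to 0.53 (Oas1a, WT-LPS versus WT-PBS), -0.082 to 0.79 (Oas1g, the same), and -0.098 to 0.73 (Oas1g), -0.81 to 0.40 (Oas3) and -0.055 to 0.45 (Oasl2) in the genotype by LPS term. The cause was not tested.

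With a replicate block in the recurrent model, 6, 2, 0, 6 and 3 members were called in PL versus PP, LL versus LP, LP versus PP, LL versus PL and the difference, as without it. Deviations of same-numbered libraries correlated between -0.41 and 0.41 over genes, so the numbers were not taken to pair them.

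The Oas1a and Oas1g values share reads, Oas2 and Oasl1 overlap a gene on the other strand by 1273 and 38 bp, Oas3 rests on few counts in PP, and peak lists have no replicates.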
